A study of Mus musculus with 9 samples.

Results

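Lipolysis and lipid droplet genes were taken as 10 named genes, which are the lipases Pnpla2, Lipe and Mgll, the lipase cofactors Abhd5 and G0s2, the perilipin coat genes Plin1, Plin2, Plin4 and Plin5, and Cidec. They were matched by exact name among the 24356 gene symbols of each deposited table, and all 10 were found, each above 0 in all 9 libraries. Levels are FPKM, fragment counts scaled to transcript length and to the size of the library, so that levels of different genes can be compared per unit of length. The libraries were made from poly A selected RNA of whole brown adipose tissue (BAT), 1 library per mouse, with 2 females and 2 males labelled KO and 3 females and 2 males labelled WT. The KO mice (GHRH-KO) carry a targeted disruption of Ghrh, the growth hormone releasing hormone gene, in the whole animal and not in fat alone, which leaves them deficient in growth hormone, and the WT mice were their littermates. All were of a mixed background of C57BL6 with 129SV and were fed chow. Their ages are not given in the sources used here. Libraries are named below by label, sex and a number within the group.

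Triacylglycerol in the droplets of brown adipocytes is broken down in steps. Adipose triglyceride lipase, encoded by Pnpla2, removes the first fatty acid, hormone-sensitive lipase, encoded by Lipe, acts on the diacylglycerol that is left, and monoacylglycerol lipase, encoded by Mgll, releases the last fatty acid and glycerol. Abhd5 (CGI-58) activates the first lipase and G0s2 inhibits it, while perilipins on the droplet surface control access to the stored lipid and Cidec promotes the enlargement of droplets by transfer of lipid between them. Growth hormone is known as a lipolytic hormone in adipose tissue, and noradrenaline drives lipolysis in BAT through cyclic AMP.

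In the libraries themselves the targeted gene ran against the labels. No Ghrh signal (0 FPKM) was listed for any of the 5 libraries labelled WT, whereas KO female 1, KO female 2, KO male 1 and KO male 2 held 0.846, 0.233, 0.799 and 0.470 FPKM. Every direction below therefore takes the labels as given, and the libraries are called labelled KO or labelled WT. The defining brown adipocyte gene Ucp1 was between 1357 and 2992 FPKM in all libraries, with 2504 ± 350 FPKM in those labelled KO (SD, n = 4) and 1820 ± 384 FPKM in those labelled WT (n = 5), a log2 difference of 0.52 (limma adjusted p 0.0739, exact permutation p 0.0397). The 9 brown adipocyte markers had a mean score of 0.0239 ± 0.329 in libraries labelled KO (SD, n = 4) and -0.0192 ± 0.213 in those labelled WT (n = 5), on a scale of log2 FPKM centred per gene (exact permutation p 0.849, two-sided), with 5 of the 9 below 0 in the difference and 4 above. KO male 1 stood apart, with Spearman correlations of 0.924 to 0.934 with the other libraries and a lymphocyte marker score of 6.06 against -1.51 to -0.0921 elsewhere, and differences averaged over the sexes that changed by over 1.5 times without it are given. Skeletal muscle markers also moved with the labels. Their score ran from 0.339 to 1.86 in libraries labelled KO and from -2.69 to -0.130 in those labelled WT, with all 13 markers above 0 in the difference and 4 called higher (exact permutation p 0.00794).

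Genes were tested with limma on log2 FPKM, with a mean for each of the 4 groups of label and sex, over the 14675 genes above 0 in all libraries, and a gene was called at an adjusted p under 0.05. Averaged over the sexes, 2 of the 10 genes were called for KO minus WT, G0s2 and Cidec, and both were lower in libraries labelled KO. Over all genes tested, 529 were called (3.60%), of which 210 were higher and 319 lower (2.17% of all genes tested). At an unadjusted p under 0.05 the count was 4 of the 10, G0s2, Cidec, Plin4 and Abhd5, all lower, where the share of all genes was 20.2%. The difference was below 0 in 8 of the 10 genes with a median of -0.20 log2 units, against 62.5% of all genes and a median of -0.07. The split of all genes moved with scaling between libraries, to 130 higher and 92 lower when each library was centred on its median and to 228 higher and 216 lower after quantile normalization. Neither of the 2 genes was called with median centring (adjusted p 0.0798 for G0s2 and 0.169 for Cidec in limma), and both were after quantile normalization.

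**Figure D1:**
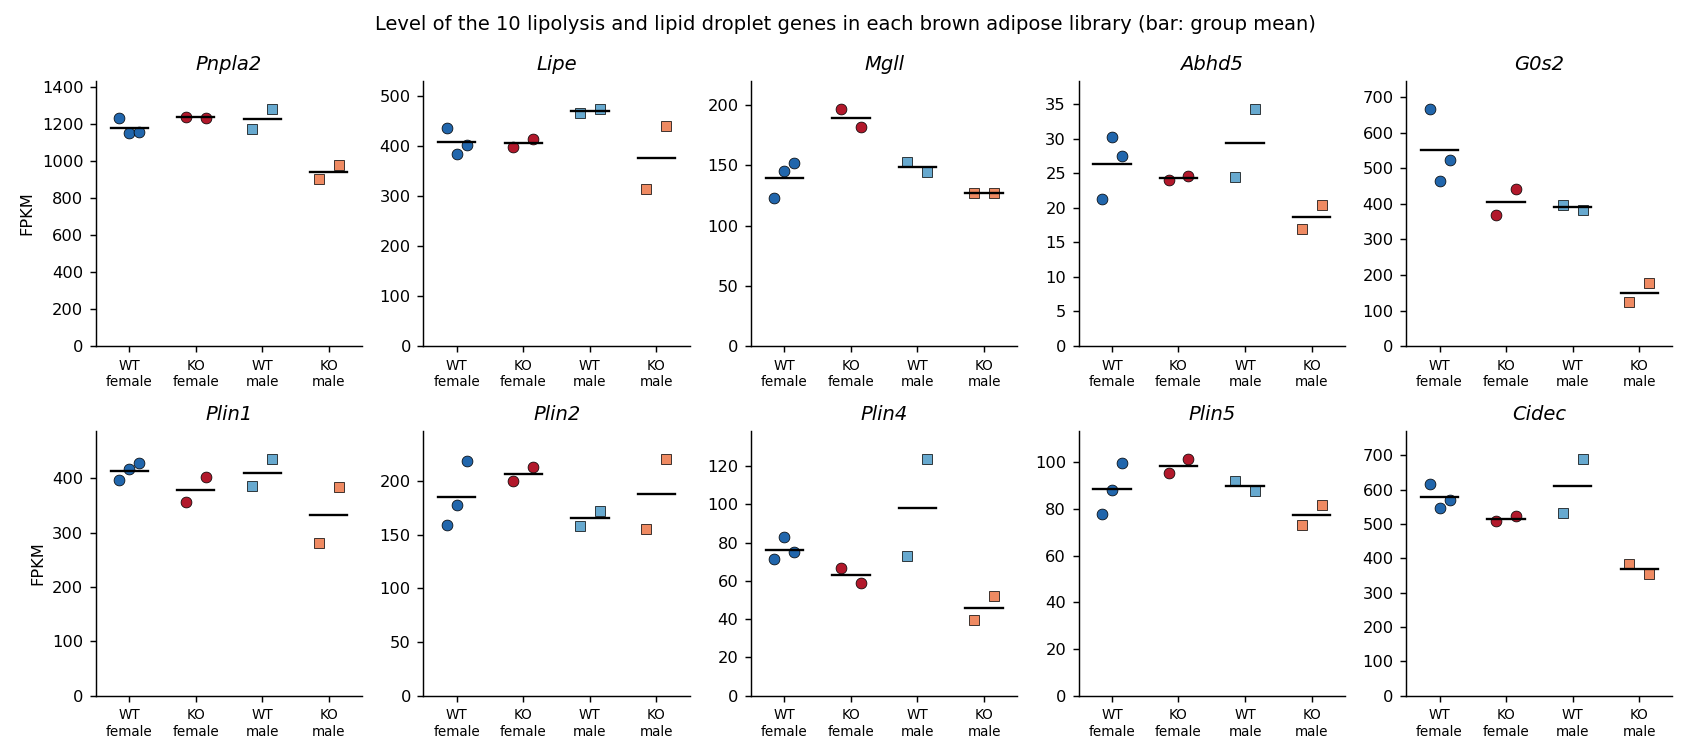
Level in FPKM of each of the 10 genes (vertical axes from 0) in the 9 libraries, by label and sex. Points are libraries, circles female and squares male, and bars are group means. The 2 libraries labelled KO male are the lowest for G0s2 (123 and 176 FPKM) and for Cidec (383 and 355 FPKM).

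Pnpla2 was the most abundant of the 10 genes in every library and ranked between 36 and 60 among all genes. It lies at chr7:141455198-141460743 of GRCm38, on the plus strand. Its levels were 1232, 1151 and 1153 FPKM in WT females 1 to 3, 1238 and 1233 FPKM in the KO females, 1169 and 1277 FPKM in the WT males, and 901 and 977 FPKM in the KO males. Both KO males lay below every other library, while both KO females lay above all 3 WT females, though KO female 2 only by 1233 against 1232 FPKM in WT female 1. Averaged over the sexes the log2 difference was -0.16 (SE 0.07, 95% interval -0.31 to 0.00222, limma adjusted p 0.255), a mean of 1087 ± 174 FPKM (SD, n = 4) against 1196 ± 55.9 FPKM (n = 5).

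Lipe (chr7:25379527-25398710, minus strand) stood at 313 to 439.8 FPKM in libraries labelled KO and 384 to 473 FPKM in those labelled WT. The groups overlapped and the difference was -0.17 log2 units (SE 0.10, limma adjusted p 0.427). It was -0.05 without KO male 1 (limma adjusted p 0.702) and -0.29 without KO male 2 (limma adjusted p 0.0522). The ratio of Lipe to Pnpla2 was 0.363 ± 0.0587 in libraries labelled KO and 0.361 ± 0.0249 in those labelled WT (exact permutation p 0.992, adjusted p 0.992 over the 10 ratios planned). Reads on Lipe are uncertain in part, since 10.8% of the 50-base stretches of its transcripts also occur in 4732471J01Rik, which overlaps it on the other strand, and it was not stated whether strand was kept.

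Mgll (chr6:88724412-88828360, plus strand) had differences of opposite sign in the sexes. In females the levels were 197 and 182 FPKM in libraries labelled KO and 123, 145 and 152 FPKM in those labelled WT. In males they were 127 and 127 FPKM labelled KO and 153 and 144 FPKM labelled WT. So the KO females were above all 3 WT females and the KO males below both WT males. The log2 difference was 0.44 in females (SE 0.10, limma adjusted p 0.172) and -0.23 in males (SE 0.11, limma adjusted p 0.379), and it did not pass the test in either sex or averaged over both (0.11, SE 0.08, limma adjusted p 0.517).

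Abhd5, the activator, was the least abundant of the 10 genes in every library. It lies at chr9:122351608-122381524 on the plus strand. Levels were 24.0, 24.7, 16.9 and 20.4 FPKM in KO female 1, KO female 2, KO male 1 and KO male 2, against 21.3 to 34.2 FPKM in libraries labelled WT. The groups overlapped, with WT female 1 at 21.3 FPKM and WT male 1 at 24.5 FPKM both below KO female 2, and the log2 difference was -0.37 (SE 0.14, limma adjusted p 0.197). Of its 50-base stretches 15.1% also occur in other genes, among them A730085K08Rik on the other strand, so its level is uncertain to that extent.

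G0s2, the inhibitor, gave the lowest p of the 10 genes. Levels were 666, 466 and 524 FPKM in WT females 1 to 3 and 368 and 442 FPKM in KO females 1 and 2. In males they were 398 and 383 FPKM in WT males 1 and 2 and 123 and 176 FPKM in KO males 1 and 2. Within each sex every library labelled KO was below every library labelled WT, but the KO females overlapped the WT males. The mean was 277 ± 152 FPKM in libraries labelled KO and 487 ± 115 FPKM in those labelled WT, and the log2 difference averaged over the sexes was -0.92 (SE 0.15, 95% interval -1.26 to -0.58, limma adjusted p 0.0318), a 1.89-fold lower level. The exact permutation test over all libraries gave p 0.0397, and within each sex 0.0333, where the smallest possible values are 0.00794 and 0.0167. Without KO male 1 the difference was -0.79 (limma adjusted p 0.0399). The call was lost without WT female 1, 2 or 3 (adjusted p 0.0662, 0.0790 and 0.0752), KO female 1 or 2 (0.134 and 0.0788) or WT male 2 (0.0784), and with libraries centred on their median (0.0798), with differences from -0.99 to -0.85. Over all alternatives of the limma fit its adjusted p ran from 0.0178 to 0.134.

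G0s2 is a short gene of a single annotated transcript at chr1:193272161-193273217, on the minus strand within the span of Lamb3, which runs on the other strand and shares no 50-base stretch with it. The 250 bases before its RefSeq start (GRCm38.p6, chr1:193273189-193273438, minus strand) are shown because this gene was called, and hold none of the 5 motifs searched, so no letters are in capitals.
G0s2: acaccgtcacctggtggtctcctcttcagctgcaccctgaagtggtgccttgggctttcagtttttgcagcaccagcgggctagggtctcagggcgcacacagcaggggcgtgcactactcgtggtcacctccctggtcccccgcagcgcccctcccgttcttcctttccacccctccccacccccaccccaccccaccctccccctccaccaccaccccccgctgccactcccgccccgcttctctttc

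Plin1 is the perilipin of the adipocyte droplet surface that restrains basal lipolysis. In 8 of the 9 libraries it came next after Cidec in level among the droplet protein genes of the 10. It lies at chr7:79720218-79732903 on the minus strand. Levels were 357, 402, 281 and 384 FPKM in KO female 1, KO female 2, KO male 1 and KO male 2, and 386 to 436 FPKM in libraries labelled WT. KO male 1 was far the lowest, and the log2 difference of -0.23 (SE 0.10, limma adjusted p 0.286) was -0.11 without it (limma adjusted p 0.415) and -0.34 without KO male 2 (limma adjusted p 0.0506). The exact permutation test gave p 0.0397, and 0.0833 within each sex. By this test over all libraries 4 of the 10 genes, G0s2, Plin1, Plin4 and Cidec, and 17.7% of all genes had a p under 0.05.

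Plin2, a perilipin found on droplets of most cell types, had a difference above 0. Its levels were 199.6, 213, 155 and 220.3 FPKM in KO female 1, KO female 2, KO male 1 and KO male 2, against 158 to 219 FPKM in libraries labelled WT. The groups overlapped and the log2 difference was 0.17 (SE 0.13, limma adjusted p 0.562). It was 0.29 without KO male 1 (limma adjusted p 0.165) and 0.04 without KO male 2 (limma adjusted p 0.871). It lies at chr4:86648386-86670060 on the minus strand.

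Plin5, a perilipin of oxidative tissues that ties droplets to mitochondria, did not differ beyond its spread. It stood at 73.0 to 101 FPKM in libraries labelled KO and 77.8 to 99.6 FPKM in those labelled WT, with means of 87.9 ± 12.9 and 89.0 ± 7.88 FPKM. The log2 difference was -0.03 (95% interval -0.23 to 0.17, limma adjusted p 0.915), and its sign turned under median centring (0.03), quantile normalization (0.0020) and without WT female 3 (0.02) or KO male 1 (0.01).

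Plin4, a perilipin of white adipocytes and other lipid-storing cells, lies next to Plin5 on chromosome 17, at chr17:56100591-56109803 against chr17:56111601-56117596, both on the minus strand with 1797 bases between them. Plin4 levels were 66.7, 59.1, 39.5 and 52.3 FPKM in KO female 1, KO female 2, KO male 1 and KO male 2. In libraries labelled WT they were 71.2, 82.96 and 74.9 FPKM in the females and 72.7 and 124 FPKM in the males. The groups did not overlap, with the KO males lowest and WT male 2 far above the rest. Such a separation with lower levels in libraries labelled KO was found for 2 of the 10 genes, Plin4 and Cidec, and for 6.04% of all genes tested. The mean was 54.4 ± 11.6 FPKM against 85.1 ± 22.0 FPKM, and the log2 difference was -0.67 (SE 0.17, 95% interval -1.05 to -0.29, limma adjusted p 0.0668), just short of the threshold. The exact permutation test gave p 0.00794, the smallest the design allows. It passed the limma threshold without KO male 2 (adjusted p 0.0459) or WT male 1 (0.0139), and the difference was -0.48 without WT male 2 (adjusted p 0.126).

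Cidec, which was second in level among the 10 genes in 7 of the 9 libraries, was the other gene called. It lies at chr6:113424634-113435760 on the minus strand. Levels were 617, 547 and 569 FPKM in WT females 1 to 3, 533 and 689 FPKM in WT males 1 and 2, 509 and 523 FPKM in KO females 1 and 2, and 383 and 355 FPKM in KO males 1 and 2. Every library labelled KO was below every library labelled WT, with KO female 2 just under WT male 1 and the KO males far under both. The mean was 442 ± 85.9 FPKM against 591 ± 63.3 FPKM and the log2 difference was -0.44 (SE 0.09, 95% interval -0.65 to -0.23, limma adjusted p 0.0456), a 1.36-fold lower level. The exact permutation test gave p 0.00794. The call was lost without any 1 library other than WT male 1, with differences from -0.47 to -0.35. The adjusted p was then 0.0592 and 0.0572 without KO males 1 and 2, 0.170 and 0.123 without KO females 1 and 2, 0.0969, 0.0924 and 0.1001 without WT females 1 to 3, and 0.106 without WT male 2, while without WT male 1 it was 0.0156. The call of Cidec was also lost with median centring (adjusted p 0.169) and with a pseudocount of 0.1 or 1 FPKM (0.0533 and 0.0522). The limma adjusted p of Plin4 over the same alternatives ran from 0.0139 to 0.199.

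**Figure D2:**
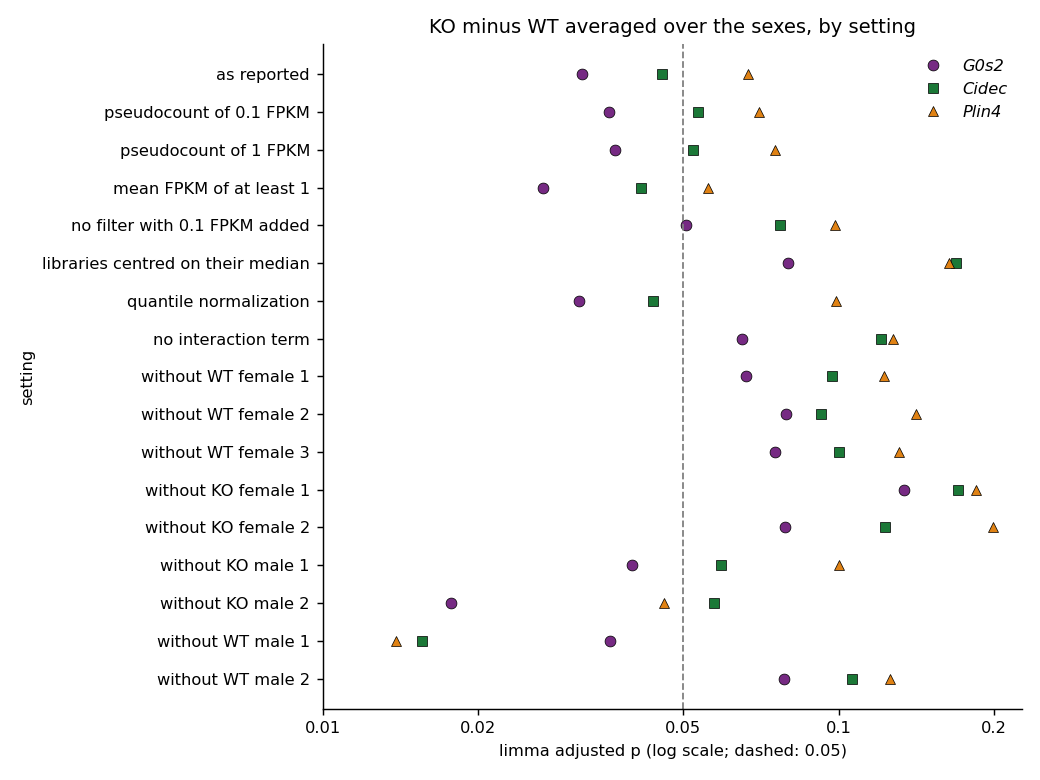
Limma adjusted p (horizontal axis, log scale) for KO minus WT averaged over the sexes of G0s2 (circles), Cidec (squares) and Plin4 (triangles) under each setting (vertical axis), with the threshold of 0.05 as a dashed line. Of the settings shown, G0s2 passes in 8 with the reported one included, and the points of all 3 genes lie between 0.0139 and 0.199.

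The 250 bases before RefSeq starts of Cidec (chr6:113435761-113436010) and Plin4 (chr17:56109783-56110032) are shown because these were the genes whose groups did not overlap. Both lie on the minus strand of GRCm38.p6. Cidec has another RefSeq start, whose 250 bases (chr6:113434765-113435014) are not shown. For neither Cidec start were the 50 bases after it found unbroken in an annotated Cidec transcript. Capitals mark ATTGG in Plin4, which is CCAAT read on the other strand and begins 18 bases before the start.
Cidec: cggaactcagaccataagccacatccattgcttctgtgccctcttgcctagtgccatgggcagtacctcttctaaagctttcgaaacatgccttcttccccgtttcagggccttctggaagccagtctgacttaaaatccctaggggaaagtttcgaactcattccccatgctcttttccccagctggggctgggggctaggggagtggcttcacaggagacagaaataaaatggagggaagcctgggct
Plin4: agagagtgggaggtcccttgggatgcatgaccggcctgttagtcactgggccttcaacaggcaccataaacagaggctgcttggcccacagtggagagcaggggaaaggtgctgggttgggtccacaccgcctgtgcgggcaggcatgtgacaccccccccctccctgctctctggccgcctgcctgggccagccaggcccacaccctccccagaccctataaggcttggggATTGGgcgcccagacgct

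The search covered the 14 RefSeq promoter windows of the 10 genes, each of 250 bases before to 50 bases after a start, on both strands. It used TTCNNNGAA, the element that the growth hormone activated factor STAT5 binds, AGGTCA, the single nuclear receptor repeat, a pair of AGGNCA in the same direction with 1 base between them, the repeat that PPAR binds, which can overlap AGGTCA, and the promoter elements TATAAA and CCAAT. Among 32851 mouse promoter windows of the same length these were present in 8.30%, 16.3%, 0.381%, 13.6% and 37.4%. TTCNNNGAA occurred in Lipe, AGGTCA in Abhd5, Plin2 and Plin5, and CCAAT in Plin2, Plin4 and Plin5, while no window of G0s2, Cidec, Mgll, Plin1 or Pnpla2 held any of the 5. The letters are a description of these windows, not binding sites.

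**Figure D3:**
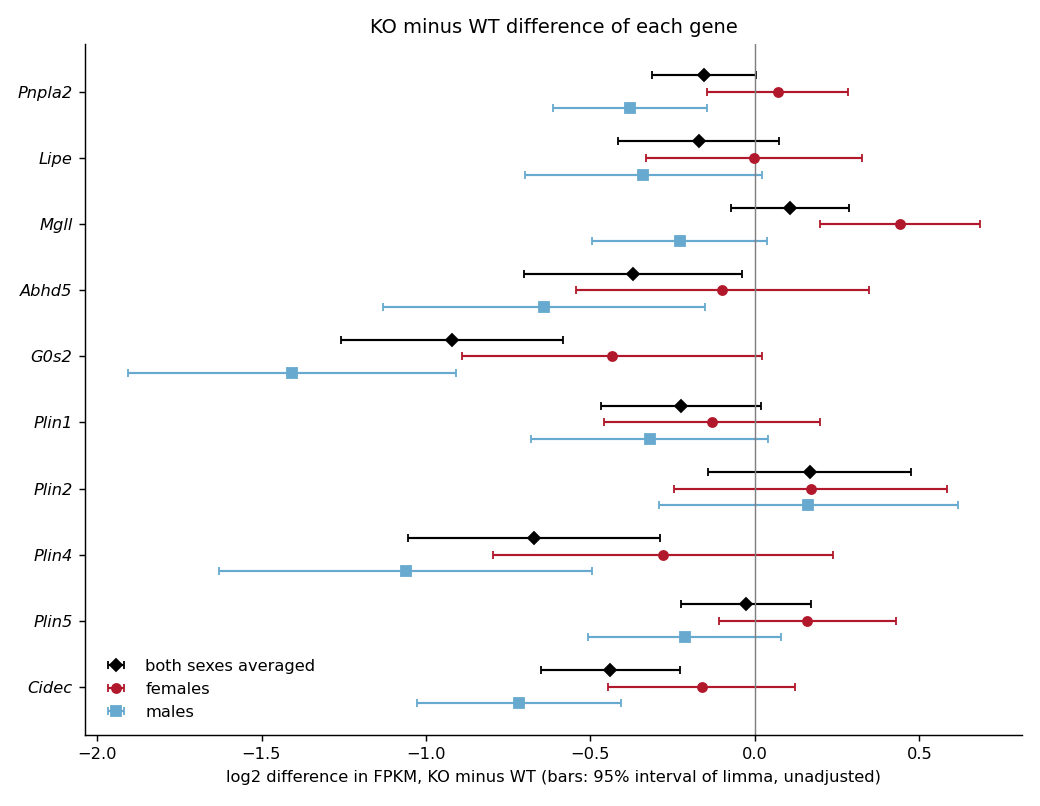
Log2 difference in FPKM, KO minus WT, of each gene (horizontal axis) averaged over the sexes (black diamonds), in females (red circles) and in males (blue squares), with unadjusted 95% intervals of limma. G0s2 has the largest difference of the 10 in males (-1.41), and Mgll lies above 0 in females (0.44) and below 0 in males (-0.23).

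When the sexes were taken apart, none of the 10 genes was called in either. In females the lowest limma adjusted p was that of Mgll (0.172), and 1 of the 10 genes, Mgll, had an unadjusted p under 0.05, against 12.7% of all genes with such a p and 3 called (0.0204%). The ordinary linear model at an unadjusted p under 0.01 also gave 1 of the 10, Mgll, and 3.43% of all genes. In males the lowest limma adjusted p was 0.0676 for G0s2, and 2 genes of all those tested were called (0.0136%). There 5 of the 10 genes had an unadjusted p under 0.05, all of them lower in the KO males, as did 16.6% of all genes, while the ordinary linear model at an unadjusted p under 0.01 gave 3, Pnpla2, Cidec and G0s2, and 5.29% of all genes. The log2 differences of those 5 in males were -1.41 for G0s2 (SE 0.21), -1.06 for Plin4 (SE 0.24), -0.72 for Cidec (SE 0.13), -0.64 for Abhd5 (SE 0.21) and -0.38 for Pnpla2 (SE 0.10). The same 5 genes stood at -0.44, -0.28, -0.16, -0.10 and 0.07 in females.

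In males 9 of the 10 genes were lower in both libraries labelled KO than in both labelled WT, all but Plin2, where the share of all genes was 28.7%. For 3 of the 10, G0s2, Plin4 and Cidec, this held in females as well, against 9.66% of all genes. Pnpla2 and Mgll were higher in both KO females than in all WT females and lower in both KO males than in both WT males, a pattern of 2.58% of all genes. These male counts rest on 2 libraries on each side, 1 of them KO male 1. Without it, 4 of the 10 genes, Pnpla2, Cidec, G0s2 and Plin4, and 17.8% of all genes had an unadjusted p under 0.05 in males, and the G0s2 difference was -1.15 (limma adjusted p 0.124).

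The difference between the sexes in the KO minus WT difference was tested as an interaction. No gene passed at an adjusted p under 0.05 in limma, among the 10 or among all genes, and 1028 of all genes (7.01%) had an unadjusted p under 0.05. Of the 10 genes 5 did, Mgll (-0.67, SE 0.15), Pnpla2 (-0.45, SE 0.14), G0s2 (-0.97, SE 0.29), Cidec (-0.56, SE 0.18) and Plin4 (-0.78, SE 0.33), where a negative value means a lower difference in males. All 10 genes were below 0, with a median of -0.50 log2 units, against 51.3% of all genes and a median of -0.01. Without KO male 1 the count was 8 of the 10 with a median of -0.40, against 65.9% of all genes and a median of -0.13. With libraries centred on their median the median of all genes was -0.12 and that of the 10 genes -0.60, and 3 of the 10, Mgll, G0s2 and Cidec, and 6.93% of all genes had an unadjusted p under 0.05. The lowest limma adjusted p among the 10 was 0.614, so no difference between the sexes was shown, and the ordinary linear model at an unadjusted p under 0.01 gave 2 of the 10, Pnpla2 and Mgll, and 1.66% of all genes.

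Averaged over the labels, none of the 10 genes was called for male minus female, and 2 of all genes were (0.0136%). G0s2 was 0.97 log2 units lower in males (SE 0.15, limma adjusted p 0.135), the 21st lowest p of all genes tested. Mgll (-0.24, SE 0.08) and Pnpla2 (-0.17, SE 0.07) also had an unadjusted p under 0.05, as did 10.4% of all genes, and the ordinary linear model at an unadjusted p under 0.01 gave G0s2 alone of the 10 and 3.14% of all genes. The WT males alone held 398 and 383 FPKM of G0s2, below all 3 WT females.

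Ratios of these genes within a library do not depend on how libraries were scaled, and 10 were planned. The ratio of G0s2, the inhibitor, to Pnpla2 was 0.540, 0.405 and 0.454 in WT females 1 to 3 and 0.298 and 0.358 in the KO females, and 0.340 and 0.3003 in the WT males against 0.137 and 0.180 in the KO males. It was lower in libraries labelled KO within each sex, with a mean of 0.243 ± 0.103 against 0.408 ± 0.0947 (exact permutation p 0.0476, adjusted p 0.159 over the 10 ratios). The ratio of the activator Abhd5 to Pnpla2 was 0.0198 ± 0.000899 against 0.0230 ± 0.00396 (exact permutation p 0.175, adjusted p 0.212). The ratio of G0s2 to Abhd5 was 12.3 ± 5.15 against 18.6 ± 7.61 (exact permutation p 0.159, adjusted p 0.212).

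Among the coat genes the ratio of Plin2 to Plin1 was 0.560, 0.530, 0.552 and 0.573 in KO female 1, KO female 2, KO male 1 and KO male 2. In libraries labelled WT it was 0.399, 0.425 and 0.511 in females and 0.411 and 0.395 in males. Every library labelled KO was thus above every library labelled WT, although neither gene was called by limma. The log2 difference of the ratio was 0.38 (exact permutation p 0.0159, adjusted p 0.159 over the 10 ratios). The ratio of Plin4 to Plin1 was 0.153 ± 0.0234 against 0.205 ± 0.0449 (exact permutation p 0.0476, adjusted p 0.159), and that of Plin5 to Plin1 0.248 ± 0.0244 against 0.216 ± 0.0188 (exact permutation p 0.0714, adjusted p 0.179). The ratio of Cidec to Plin1 was 1.25 ± 0.227 against 1.43 ± 0.128, and that of Cidec to its brown fat relative Cidea 0.307 ± 0.0266 against 0.357 ± 0.0584 (exact permutation p 0.190 and 0.167, both adjusted p 0.212). No ratio passed after adjustment.

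**Figure D4:**
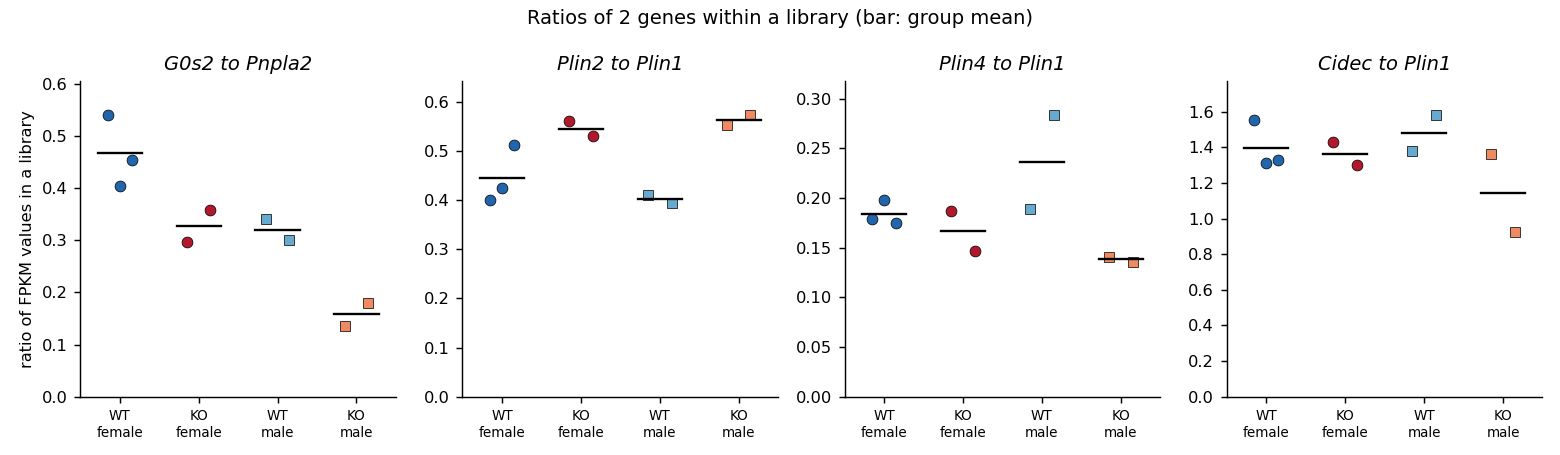
Ratio of FPKM values of 2 genes in a library (vertical axes from 0), by label and sex. Points are libraries, circles female and squares male, and bars are group means. The ratio of Plin2 to Plin1 is at least 0.530 in every library labelled KO and at most 0.511 in every library labelled WT.

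Other genes of lipid storage and release were taken as 5 lists. Where 3.60% of all genes tested were called for KO minus WT averaged over the sexes, 8 genes of these lists were. The largest differences among these called genes were in lipolytic signalling, where 3 of 29 genes were called, all lower in libraries labelled KO, with a list median of -0.27. Hcar2, the receptor for beta-hydroxybutyrate and niacin that inhibits lipolysis, was at 0.880 ± 0.228 FPKM against 3.20 ± 1.05 FPKM, a log2 difference of -1.91 (SE 0.20, limma adjusted p 0.0139). Hcar1, the lactate receptor with the same action, was at 3.84 ± 0.980 FPKM against 14.1 ± 3.28 FPKM, a log2 difference of -1.93 (SE 0.21, limma adjusted p 0.0156). Hcar1 and Hcar2 levels did not overlap between the labels, and such a separation with lower levels in libraries labelled KO was found for 6.04% of all genes tested. It also held for Npr1, Cav1, Cav2, Ddhd1 and Agpat9, which are described below. Hcar1 and Hcar2 both differed by more on the log2 scale than any of the 10 genes. Npr1, the natriuretic peptide receptor that stimulates lipolysis through cyclic GMP, was at 7.63 ± 1.47 FPKM against 13.4 ± 2.39 FPKM (log2 difference -0.82, limma adjusted p 0.0370). So the genes called in this list hold receptors that inhibit lipolysis and a receptor that stimulates it.

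Of 23 other droplet coat and CIDE genes 21 were tested, 2 were called and both were lower, Cav2 (-0.79, limma adjusted p 0.0235) and Cav1 (-0.47, limma adjusted p 0.0347), which encode the caveolins of plasma membrane caveolae and droplets. Cav1 was at 222 ± 22.4 FPKM against 304 ± 23.8 FPKM, and the list median was -0.18. Of 24 other lipases and esterases 18 were tested, with the phospholipase gene Ddhd1 lower (-0.67, limma adjusted p 0.0280) and the cholesterol ester hydrolase gene Nceh1 higher (1.04, limma adjusted p 0.0455), and a list median of -0.02. Of 19 genes of triacylglycerol synthesis 17 were tested and Agpat9, which encodes a glycerol-3-phosphate acyltransferase (Gpat3), was called, at 3.56 ± 0.824 FPKM against 9.20 ± 2.19 FPKM (-1.32, limma adjusted p 0.0343), with a list median of -0.10. Lpin1, a phosphatidate phosphatase gene of the same list, was next at -0.26 (limma adjusted p 0.0940).

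None of 26 transcriptional regulators of droplet genes was called by limma. Of them 6 had an unadjusted p under 0.05, where the share of all genes was 20.2%. The lowest adjusted p were those of Klf15 (0.61, adjusted p 0.0660), a factor induced by glucocorticoids, and Irf4 (-1.47, adjusted p 0.117), a factor that drives lipase genes. The list median was -0.09. Against the same 20.2% of all genes, 15 of 29 genes of lipolytic signalling had an unadjusted limma p under 0.05. So did 11 of 21 other droplet coat and CIDE genes, 6 of 18 other lipases and esterases and 5 of 17 genes of triacylglycerol synthesis. The 8 calls over the 5 lists fell to 0 without WT female 1 or KO female 1, to 1 without KO female 2 or WT male 2 and to 3 without WT female 2 or 3, and rose to 16 without KO male 2 and 15 without WT male 1.

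Several lists of cell type markers moved with the labels beside these genes. Over all genes tested, 62.5% were below 0 in KO minus WT and 3.60% were called. With libraries centred on their median the share below 0 was 52.5%, and the lists were not counted that way. All 8 general adipocyte markers were below 0 in KO minus WT and 1 was called, Lpl (-0.48, limma adjusted p 0.0347). Their score was -0.780 to 0.0465 in libraries labelled KO and -0.00683 to 0.766 in those labelled WT (exact permutation p 0.0397). Of the 12 white adipocyte markers chosen, 11 were found by name. Gpr120 was not, since its name here is Ffar4. Ffar4, which is not in the score, was at 40.4 ± 13.6 FPKM against 23.6 ± 13.7 FPKM (log2 difference 0.997, limma adjusted p 0.131). Of the 11 white adipocyte markers found, 8 were above 0 in all libraries and 7 of these were below 0 in the difference. Hoxc10 and Tcf21 were at 0 in all libraries and Hoxc9 in most, and these were not scored either. The score of the 8 white adipocyte markers was -1.08 to -0.278 against -0.501 to 1.33 (exact permutation p 0.0238). Lep, the leptin gene, was called (-3.21, limma adjusted p 0.0426). All 10 fibroblast and progenitor markers were below 0 with 4 called, and the score was -0.557 to -0.197 against -0.196 to 0.628 (exact permutation p 0.0159). All 7 endothelial markers were below 0 with 1 called, Gpihbp1 (-0.53, limma adjusted p 0.0451), and the score did not pass (exact permutation p 0.0794), nor did those of macrophage (p 0.397) and lymphocyte markers (p 0.683). The part of these markers, and of the skeletal muscle markers above, in the differences of the 10 genes was not tested. In bulk tissue fewer cells of a type and less RNA per cell cannot be told apart.

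**Figure D5:**
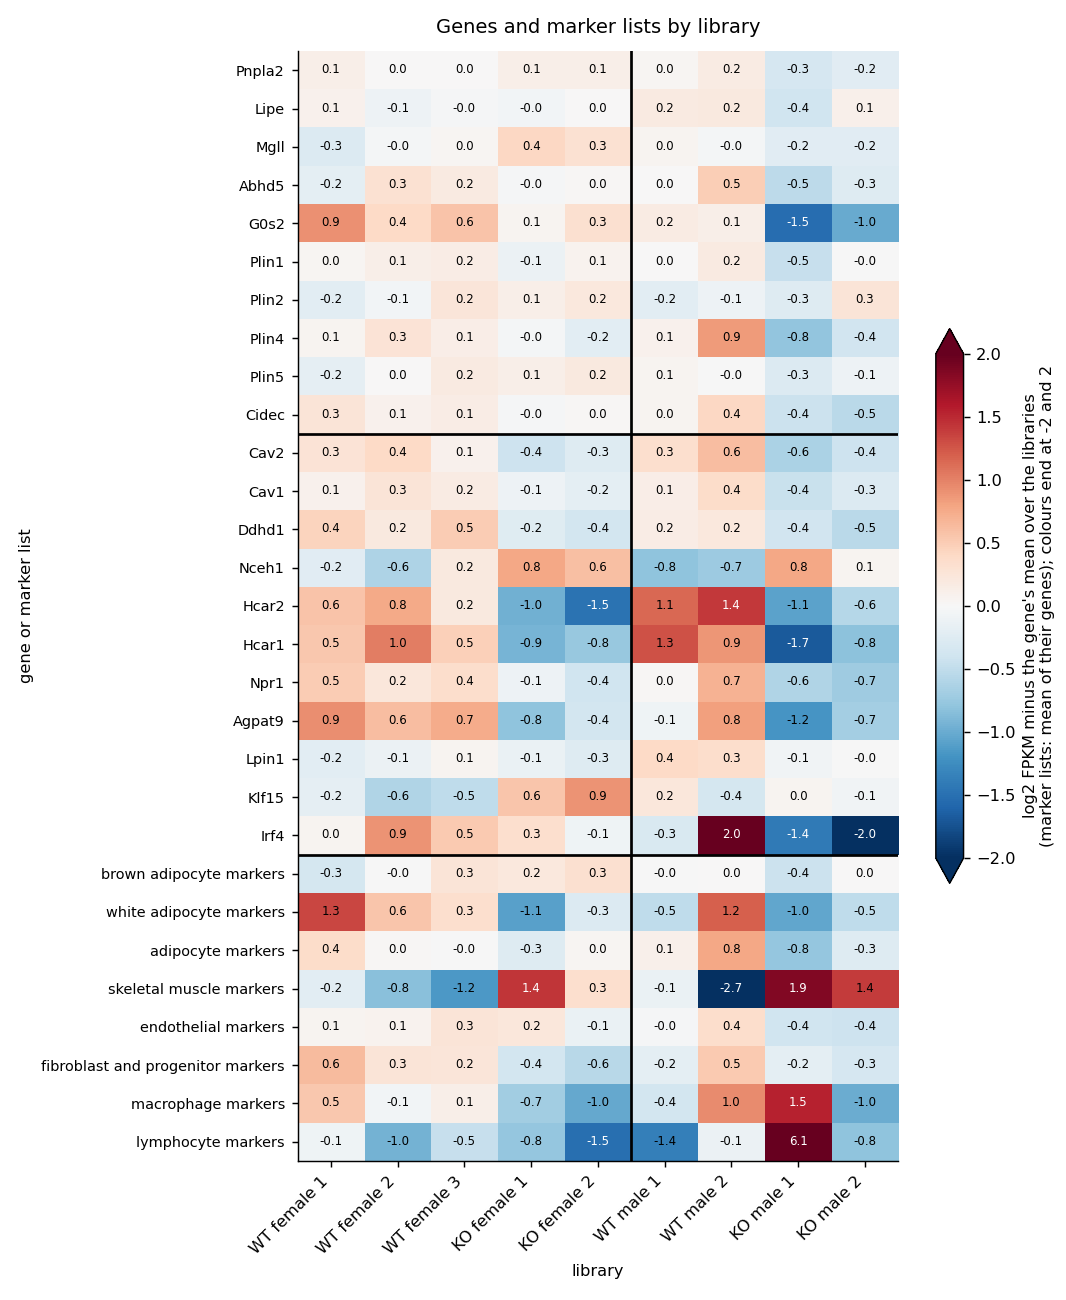
Log2 FPKM minus the mean of the gene over the 9 libraries (colour and printed value) for the 10 genes (top), the named genes of the other lists (middle) and the mean of each marker list (bottom), by library. G0s2 is lowest in the 2 KO males, Hcar1 and Hcar2 are below their mean in all 4 libraries labelled KO, and the lymphocyte markers stand at 6.06 in KO male 1.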

How the data were processed

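Brown adipose tissue RNA from 9 mice was sequenced as paired ends on Illumina instruments, for which both HiSeq2000 and HiSeq2500 are named. The deposited values are FPKM per gene symbol, 1 table per library, which the authors made with bcl2fastq 1.8.4, TopHat2 2.0.11 on mm10 (GRCm38) and Bowtie. The gene annotation and strand setting are not given in the sources used here. Groups were taken from the genotype and sex labels, and libraries were numbered in accession order.

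Values were analysed as log2 FPKM, without a pseudocount or any other scaling, for the 14675 genes above 0 in all libraries. The linear model of the methods (sex, genotype and their interaction) was fitted as a mean per group with limma 3.58.1 in R 4.3.3, with a mean-variance trend and Benjamini-Hochberg adjustment over all genes tested at 0.05. Single genes, ratios and marker scores were compared by exact permutation of the labels over the libraries, two-sided, with adjustment over the 10 planned ratios. Each library is 1 mouse, and p-values measure the spread between these mice. The limma script was tested on simulated data. The rest was computed with numpy 2.4.6, pandas 2.3.3 and scipy 1.17.1 and drawn with matplotlib 3.10.9, under Python 3.11.15.

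Named genes are the 10 members, Ghrh, Ucp1, and of each other pathway list up to 5 called genes by p, or the 2 with the lowest p where fewer than 2 were called, and the 3 genes nearest in pattern to the 3 members with the lowest p. Some marker genes called by limma are named beside their lists after their values were seen. The members and all lists were chosen with earlier results of these data known. Cidea, Prdm16, Ppargc1a and Ebf2 are on both a pathway list and the brown adipocyte list. Positions are those of GENCODE M21 on GRCm38, and the sequences before gene starts are those of RefSeq on GRCm38.p6.

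Fragment counts are not used here, so the depth of each library is unknown beyond the relative depth, 0.912 to 1.14 of WT female 1, read from values of 0.001 to 0.15 FPKM. The sum of FPKM per library ran from 380558 to 443569. Alternatives were pseudocounts of 0.1 and 1 FPKM, a mean of at least 1 FPKM, no filter, median centring, quantile normalization, the ordinary linear model at p under 0.01, no interaction term, each library left out and permutation within each sex. The ratio of G0s2 to Plin1 was added after the values were seen.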

Additional observations from a re-analysis of the deposited data

Results flagged for a closer look

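Single libraries far from their group, and differences that turned between the sexes, stood out. In 40 groups of libraries tested for an outlying member 5 were found, where chance gives about 1 in 20. Mgll in WT female 1 was at 123 FPKM, below the 144 to 153 FPKM of the other libraries labelled WT. Plin4 in WT male 2 was at 124 FPKM, above the 71.2 to 82.96 FPKM of the other 4, and the ratio of Plin4 to Plin1 in the same library was 0.284, where the others labelled WT reached 0.198. The ratio of Plin2 to Plin1 in WT female 3 was 0.511, the value nearest to the libraries labelled KO. The ratio of Cidec to Cidea in KO male 2 was 0.268, below 0.316 to 0.325 in the other 3 labelled KO.

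Pnpla2 and Mgll were higher in both KO females than in the WT females and lower in both KO males than in the WT males, as were 2.58% of all genes. For Pnpla2 the females were parted only by 1233 FPKM in KO female 2 against 1232 FPKM in WT female 1. The interaction was -0.45 log2 units for Pnpla2 (limma adjusted p 0.648) and -0.67 for Mgll (limma adjusted p 0.614), so neither difference between the sexes passed the test.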

How the results depend on the processing

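The 10 genes kept the sign of their KO minus WT difference under all alternatives except Plin5, whose values were near 0 throughout (0.0313 with median centring, 0.0020 after quantile normalization, and -0.0714 to 0.0176 with 1 library left out). The count of called genes among the 10, 2 as reported, was 1 with a pseudocount of 0.1 or of 1 FPKM and 0 without the filter, with median centring or without the interaction term, and ran from 0 to 3 with 1 library left out. G0s2 had a limma adjusted p of 0.0507 without the filter, 0.0798 with median centring and 0.0650 without the interaction term. Its ratio to Plin1, added after the values were seen, differed by -0.74 log2 units over all libraries. The exact permutation p of this ratio was 0.103 over all libraries and 0.0333 within each sex. With 1 WT female left out, none of the 10 genes was called in females, in males, for the interaction or for sex. Leaving out any other library leaves 1 library in a group, so the counts of called genes are not given there. In some of those fits genes among the 10 were called in males, for the interaction or for sex. The ordinary linear model gave 1 in females, 3 in males, 2 for the interaction and 1 for sex.

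Over all genes the 529 calls were 170 without the filter, 222 with median centring and 1107 with the ordinary linear model. With 1 library left out they were 9, 23 and 37 without WT females 1 to 3, 8 and 27 without KO females 1 and 2, 442 and 1105 without KO males 1 and 2, and 816 and 29 without WT males 1 and 2. Other pathway genes called ran from 0 to 16. Members with an exact permutation p under 0.05, 4 as reported (G0s2, Plin1, Plin4 and Cidec; 17.7% of all genes), ran from 1 to 4. The ratio of Lipe to Pnpla2, near 0 as a log2 difference, was -0.0153 within each sex and -0.107 to 0.0557 with 1 library left out, and no ratio passed after adjustment under any alternative. The causes were not tested. With libraries left out, groups of 1 library were assumed to vary like the others. No paired analysis was possible because the labels give animal numbers, not replicate numbers shared between groups. Depth is unknown, so precision rests on the spread between libraries.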

Other observations

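By likeness of pattern, measured as the root mean square difference of log2 FPKM centred per gene over the 9 libraries, the genes nearest to G0s2 were Eci3, a peroxisomal enzyme gene of fatty acid oxidation (0.246), Kif27 (0.263) and Hic2 (0.282), where the median over all genes tested was 0.762. Eci3 was at 9.08 ± 3.77 FPKM in libraries labelled KO and 14.6 ± 3.79 FPKM in those labelled WT, a log2 difference of -0.67 (limma adjusted p 0.0288), while Kif27 and Hic2 were under 1 FPKM in mean.

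Nearest to Cidec were Slc36a1, a lysosomal amino acid transporter gene (0.0702), Tmbim1 (0.0988) and Gstt1, a glutathione transferase gene (0.0990), against a median of 0.355. Nearest to Plin4 were Lama4, a laminin chain gene of basement membranes (0.0869), Slc38a6 (0.133) and Btnl9 (0.138), against a median of 0.485. Lama4 was at 8.83 ± 1.78 FPKM against 13.8 ± 4.28 FPKM. These distances describe the same libraries that were compared above.

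Growth hormone receptor, Ghr, was at 42.2 to 51.6 FPKM in libraries labelled KO and 62.8 to 155 FPKM in those labelled WT, without overlap. Such a separation with lower levels in libraries labelled KO was found for 6.04% of all genes tested. The log2 difference averaged over the sexes was -0.98 (SE 0.24, limma adjusted p 0.0660), so Ghr was not called. Its highest level was in WT male 2, which also held the highest Pnpla2, Lipe, Abhd5, Plin1, Plin4 and Cidec of all libraries. The same library had the highest general adipocyte score (0.766) and the lowest skeletal muscle score (-2.69).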
